A study of Mus musculus with 6 samples.

Results

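The genes described here are 33 mouse interferon genes, chosen by name with earlier results of these data known. They were listed as receptors, nucleic acid sensors, STAT and IRF transcription factors and antiviral effectors. All 33 were found by symbol among the 25006 Ensembl gene identifiers of the count tables, and 24 had enough counts for the test. RNA sequencing compared MOSE-PAX8, a line of murine ovarian surface epithelial cells that overexpresses the paired-box transcription factor PAX8, with MOSE-NEO, its reference line. Each line gave 3 libraries of total RNA. Both lines were kept as stable lines under selection with G418 at 0.05 mg/mL, and the labels name no other treatment. The labels name 1 line per group and no clone or vector, and whether its 3 libraries were grown apart is not said. The p-values therefore describe the scatter of these libraries alone, and that scatter may be technical.

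Interferons are secreted proteins that warn cells of viral nucleic acid. RNA sensors such as RIG-I and MDA5 act through IRF3 and IRF7 to switch on type I interferon genes, and the interferon then binds the receptor pair IFNAR1 and IFNAR2. The receptor signals through the complex ISGF3, which contains STAT2 and IRF9 and binds a DNA motif called the interferon-stimulated response element (ISRE) in the promoters of interferon-stimulated genes. Many epithelial cells keep a low tonic expression of these genes without infection.

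The libraries held 23623762 to 36367825 counts. Pax8 had 0, 1 and 1 counts in MOSE-NEO against 2570, 2973 and 3544 in MOSE-PAX8. All 12 listed markers of ovarian surface epithelium and mesothelium were tested, and their summed level was 15400 to 16800 CPM (read counts scaled to a common library size) in MOSE-NEO and 8780 to 10300 CPM in MOSE-PAX8. Of these markers 7 (58.3%) were called lower and 0 higher by edgeR, against 16.1% and 17.9% of all tested genes. MOSE-NEO 1 and MOSE-PAX8 2 stood apart from the other libraries, with 0.317% and 0.33% of their counts in lincRNA genes against 0.146% to 0.195%.

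Of the 24 tested genes 8 fell and 2 rose in MOSE-PAX8 by edgeR's quasi-likelihood test at an adjusted p below 0.05. The genes that fell were Ifih1, Eif2ak2, Irf9, Isg15, Dtx3l, Parp14, Bst2 and Ifi35, and those that rose were Cxcl10 and Ifit3. The share called was 41.7%, against 33.9% of all 12313 tested genes. The share called lower was 33.3% against a background of 16.1%, and the share called higher was 8.33% against 17.9%. The median log2 fold change was -0.08 for the tested interferon genes and 0.01 for all tested genes. In 10 of the 24 genes every MOSE-PAX8 library lay below every MOSE-NEO library, and in 4 it lay above, against 22.2% and 25.3% of all tested genes. In a bulk sample, fewer cells with a transcript and less transcript per cell cannot be told apart.

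**Figure D1:**
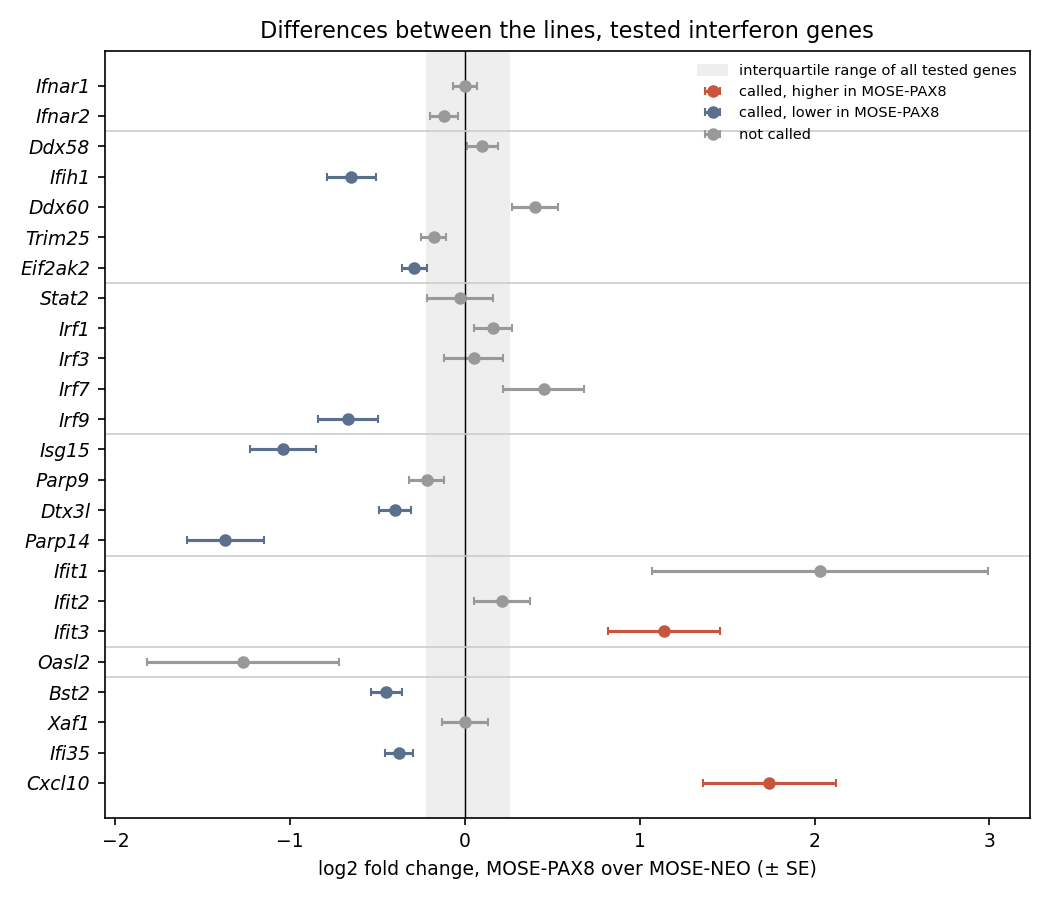
Log2 fold change of MOSE-PAX8 over MOSE-NEO (x axis, points with SE bars) for the 24 tested interferon genes, in the order of receptors, sensors, transcription factors, ISG15 and PARP genes, IFIT, OAS and other effectors. Blue points are the 8 genes called lower, red points the 2 called higher, and the grey band spans the quartiles of all tested genes, from -0.22 to 0.25.

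Promoter sequences are shown for the called genes whose window holds the core letters of the ISRE, since these genes moved in opposite directions. RefSeq promoter windows of build GRCm38.p6 (mm10), 250 bases before to 50 bases after the start site, were matched for 26 of the 33 genes, with 29 windows in all because Irf1, Irf9 and Ifit2 have 2 each. The motif searched was GAAA, then NN (any bases), then GAAA again, or TTTC, NN and TTTC when read on the other strand, and overlapping matches were each counted. It was found in 13 of the 29 windows, each of a different gene, against 3.44% of 32851 RefSeq promoter windows of the same length. Both genes that rose, Cxcl10 and Ifit3, had it, as did 4 of the 7 genes that fell and had a window. The windows are printed from 250 bases before to 30 bases after the start site, 5′ to 3′ along the gene, with the motif in capitals. They lie at chr5:92348860-92349139 on the minus strand for Cxcl10, chr19:34583279-34583558 on the plus strand for Ifit3, chr4:156200789-156201068 on the minus strand for Isg15, chr8:71537443-71537722 on the minus strand for Bst2 and chr17:78882543-78882822 on the minus strand for Eif2ak2.
Cxcl10: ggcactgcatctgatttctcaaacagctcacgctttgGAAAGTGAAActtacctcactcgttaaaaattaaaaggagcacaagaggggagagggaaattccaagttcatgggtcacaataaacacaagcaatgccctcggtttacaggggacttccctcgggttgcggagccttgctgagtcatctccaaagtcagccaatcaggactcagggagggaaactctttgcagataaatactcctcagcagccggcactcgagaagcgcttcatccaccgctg
Ifit3: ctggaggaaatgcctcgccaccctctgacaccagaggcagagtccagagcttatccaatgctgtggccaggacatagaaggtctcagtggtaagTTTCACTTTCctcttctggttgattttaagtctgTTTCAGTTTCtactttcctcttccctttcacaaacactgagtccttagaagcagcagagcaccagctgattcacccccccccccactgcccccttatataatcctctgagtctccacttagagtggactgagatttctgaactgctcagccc
Isg15: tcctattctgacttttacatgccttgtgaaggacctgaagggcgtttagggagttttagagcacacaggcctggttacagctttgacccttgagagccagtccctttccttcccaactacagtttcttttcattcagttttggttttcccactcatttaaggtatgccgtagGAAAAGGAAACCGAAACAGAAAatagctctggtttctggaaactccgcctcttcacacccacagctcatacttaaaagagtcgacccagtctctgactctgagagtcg
Bst2: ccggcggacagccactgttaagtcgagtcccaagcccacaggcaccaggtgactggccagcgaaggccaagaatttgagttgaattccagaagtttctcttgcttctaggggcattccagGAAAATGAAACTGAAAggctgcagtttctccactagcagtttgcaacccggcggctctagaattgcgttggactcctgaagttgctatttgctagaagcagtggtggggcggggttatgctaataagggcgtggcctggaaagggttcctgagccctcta
Eif2ak2: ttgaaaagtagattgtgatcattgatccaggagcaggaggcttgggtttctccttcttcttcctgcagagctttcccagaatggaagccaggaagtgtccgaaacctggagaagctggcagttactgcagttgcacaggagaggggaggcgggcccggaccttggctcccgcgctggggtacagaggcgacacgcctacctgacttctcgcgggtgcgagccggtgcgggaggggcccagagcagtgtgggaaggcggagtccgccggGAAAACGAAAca
Isg15 carried 3 overlapping matches in a row, the first base of each lying at -78, -72 and -66 from the start site. Bst2 carried 2 overlapping matches at -130 and -124, and Ifit3 carried 2 separate matches at -156 and -122. Cxcl10 had a single match, GAAAGTGAAA, at -213. Eif2ak2 had GAAAACGAAA just after the start, at 19, and Ifih1, whose match lies past the printed range, had GAAACAGAAA at 33. The letters alone did not sort the genes by direction. They were present in genes that rose (Cxcl10, Ifit3) and in genes that fell (Isg15, Bst2, Eif2ak2, Ifih1). Of the 13 genes with a window that were tested but not called, 4 had them (Ddx58, Ddx60, Stat2, Ifit1). Of the 4 with a window but too few counts for the test, 3 had them (Oas1a, Oas3, Rsad2). The windows of Irf9, Dtx3l and Ifi35, which also fell, did not hold these letters. Both Irf9 windows, from 55603735 and from 55604329, lie inside the annotated gene, so the bases before its start at 55603571 were not searched. The gamma-activated sequence (GAS), TTCNNNGAA, which reads the same on both strands, was in 8 of the 29 windows against 8.3% of all windows.

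The receptor genes did not differ detectably between the lines. Ifnar1, which encodes the signalling chain bound by TYK2, had 53.8, 51 and 55.3 CPM in the MOSE-NEO libraries and 56.3, 51.2 and 52.4 CPM in the MOSE-PAX8 libraries, from 1695, 1173 and 1666 reads against 2060, 1630 and 1702. The libraries overlapped, and the log2 fold change was 0.00 ± 0.07 (SE; edgeR adjusted p = 0.991). Ifnar2, the chain that binds interferon with high affinity, had 18.5, 20.7 and 19.6 CPM in MOSE-NEO against 17.4, 18.2 and 18.6 in MOSE-PAX8, from 584, 477 and 591 reads against 635, 578 and 603. Its lowest MOSE-NEO library lay just below the highest MOSE-PAX8 library, and the log2 fold change was -0.12 ± 0.08 (adjusted p = 0.31). Ifnar2 and Ifnar1 lie close together on chromosome 16, at 91372783 to 91405589 and 91485238 to 91507441, in a cluster with 2 further cytokine receptor genes. Il10rb, a shared chain of the interleukin-10 and interferon-lambda receptors, lies between them and rose 1.49-fold, from 13.1 ± 1.43 to 19.6 ± 1.35 CPM (SD, n = 3; adjusted p = 0.00377). Ifngr2, a chain of the interferon-gamma receptor 61.8 kb beyond Ifnar1, rose 1.3-fold (adjusted p = 0.0312), and its call was lost without MOSE-NEO replicate 1 (0.0977) or 2 (0.0919), without MOSE-PAX8 replicate 1 (0.0866) or 3 (0.128) and against the local chromosome median (0.0808). The other chains fell: Ifngr1 by 0.42 on the log2 scale (adjusted p = 0.0166) and Ifnlr1, the specific chain for interferon lambda, by 0.56 (adjusted p = 0.0446). Ifngr1 lost its call without MOSE-NEO replicate 3 (0.0513), without MOSE-PAX8 replicate 3 (0.0564) and against the local chromosome median (0.0604), and Ifnlr1 without MOSE-NEO replicate 1 (0.13) or 2 (0.101), without MOSE-PAX8 replicate 1 (0.0941), 2 (0.0805) or 3 (0.125), without MOSE-NEO replicate 1 and MOSE-PAX8 replicate 2 together (0.174), with limma-voom (0.057) and with the replicate number as a block (0.0534). The interferon ligand genes were nearly silent. Of 21 listed type I, II and III interferon genes 20 had 0 counts in every library, and Ifnb1, the gene of interferon beta, had 2 counts in all MOSE-NEO libraries together and 0 in MOSE-PAX8. The Ifna genes are close paralogs, so their 0 counts are uncertain: reads that map to several of them may have been left out of the counting. A count of 0 in a library allows a level of up to 0.082 to 0.13 CPM, counting error only.

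Among the transcription factors Irf9 was the only 1 of 5 called, a share of 20% against 33.9% of all tested genes. Irf9, the DNA-binding subunit of ISGF3, had 14.4, 14 and 10.8 CPM in MOSE-NEO against 6.97, 10 and 7.55 in MOSE-PAX8, from 453, 321 and 324 reads against 255, 319 and 245. The highest MOSE-PAX8 library lay just below the lowest MOSE-NEO library. The log2 fold change was -0.67 ± 0.17 (SE), a 1.59-fold lower level (edgeR adjusted p = 0.0164). Irf9 lies on chromosome 14, at 55603571 to 55610030, where the tested genes as a whole were lower, with a median log2 fold change of -0.43 over 393 genes. Of the 24 tested genes that start within 300 kb of Irf9, Irf9 included, 14 fell and 0 rose. The nearest 50 tested genes on each side of Irf9 had a median of -0.38, and tested against that value Irf9 was not called (difference -0.29, adjusted p = 0.259). The call was also lost on leaving out MOSE-NEO 1 (0.0548), MOSE-NEO 2 (0.0545), MOSE-PAX8 1 (0.055) or MOSE-PAX8 3 (0.0614). Rnf31, which was called lower as well (-0.59 ± 0.11, adjusted p = 0.00407), overlaps Irf9 on the same strand.

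Stat2, the partner of IRF9 in ISGF3, had 49.4, 44.8 and 30.5 CPM in MOSE-NEO against 37.1, 49.9 and 34.8 in MOSE-PAX8, from 1554, 1031 and 920 reads against 1357, 1587 and 1129, so the libraries overlapped widely (log2 fold change -0.03 ± 0.19, adjusted p = 0.911). Irf3, a factor through which RNA sensors act, had 44, 32.6 and 28.6 CPM in MOSE-NEO against 31.8, 42.8 and 34.4 in MOSE-PAX8. The reads were 1385, 751 and 863 against 1162, 1363 and 1116 (log2 fold change 0.05 ± 0.17, adjusted p = 0.856). In both genes the highest library of each line was MOSE-NEO 1 or MOSE-PAX8 2, the pair with more lincRNA. Irf3 overlaps Bcl2l12 on the opposite strand. Irf1, an interferon-gamma-induced factor, had a mean of 71.5 ± 10.6 CPM in MOSE-NEO against 79.8 ± 3.83 in MOSE-PAX8 (SD, n = 3) with overlapping libraries (0.16 ± 0.11, adjusted p = 0.299). Irf7, which amplifies the type I response and is itself interferon-induced, was far lower than Irf3. It had 29, 23 and 28 counts in MOSE-NEO against 46, 40 and 45 in MOSE-PAX8, or 0.921 to 1 CPM against 1.26 to 1.39 CPM. The lines did not overlap, but the gene did not pass the test (0.45 ± 0.23, adjusted p = 0.164). Per kilobase of exon, MOSE-NEO held 0.252 CPM of Irf7 and 10.2 CPM of Irf3. Irf7 overlaps Phrf1 on the opposite strand.

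**Figure D2:**
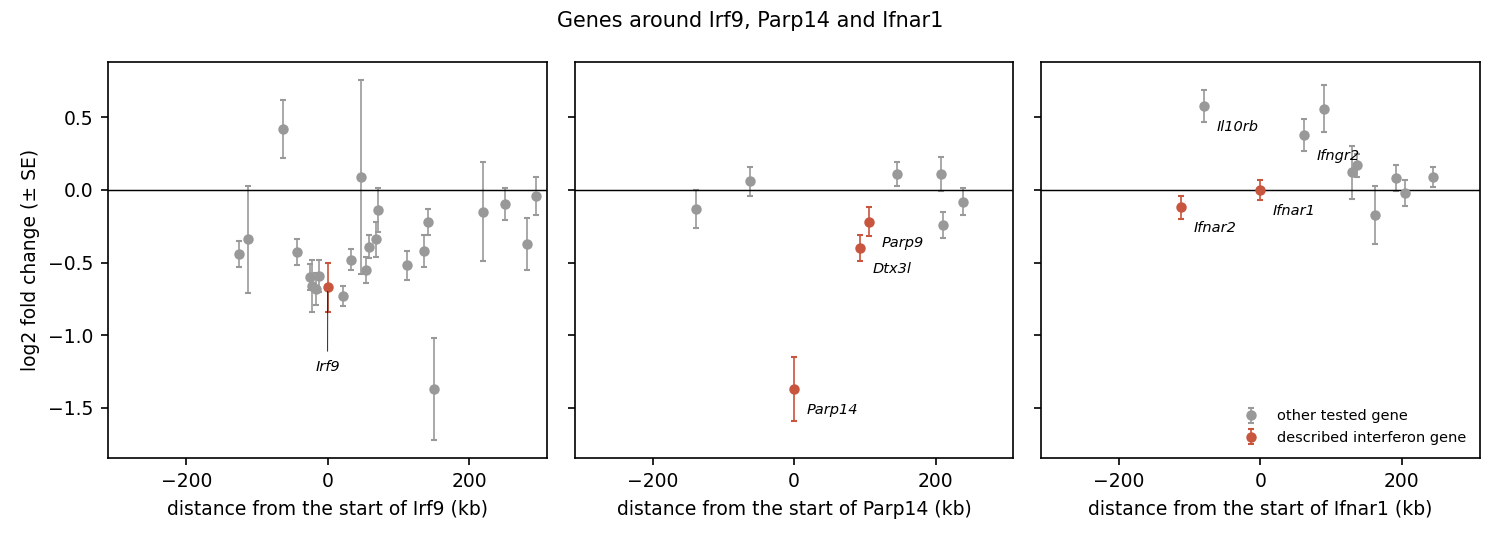
Log2 fold change with SE bars (y axis) of all tested genes that start within 300 kb of Irf9, Parp14 or Ifnar1 (x axis, distance in kb), with the described interferon genes in red and other genes in grey. Irf9 (-0.67) sits among neighbours with a median of -0.42, Parp14 (-1.37) lies far below neighbours with a median of -0.13, and Ifnar1 and Ifnar2 lie near 0 beside Il10rb and Ifngr2 at 0.58 and 0.38; each median includes the named gene.

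Of the 5 genes of RNA sensing, 2 fell and 0 rose, so 40% were called, near the 33.9% of all tested genes. Ifih1, which encodes MDA5, a sensor of long double-stranded RNA, fell from 7.46, 8.3 and 6.97 CPM in the MOSE-NEO libraries to 5.36, 4.65 and 4.47 CPM in the MOSE-PAX8 libraries, from 235, 191 and 210 reads against 196, 148 and 145. The lines did not overlap, and the level was 1.57-fold lower (log2 fold change -0.65 ± 0.14 SE, edgeR adjusted p = 0.00837). The gene lies on chromosome 2 at 62595798 to 62646255. Ddx58, which encodes RIG-I, the sensor of short double-stranded RNA with a 5′ triphosphate, had 38.6, 37.9 and 33.4 CPM against 38.3, 41.6 and 37.7 CPM. Its libraries overlapped (0.10 ± 0.09, adjusted p = 0.43). Whether the changes of Ifih1 and Ddx58 differ was not tested. Trim25, a ubiquitin ligase of the RIG-I pathway, had 118, 127 and 129 CPM in MOSE-NEO against 109, 105 and 115 in MOSE-PAX8, with no overlap but no pass (-0.18 ± 0.07, adjusted p = 0.0895). Ddx60, a helicase linked to RIG-I signalling, had 18.3, 19.3 and 13.7 CPM in MOSE-NEO against 21.9, 24.5 and 21.1 in MOSE-PAX8. It missed the threshold narrowly (0.40 ± 0.13, adjusted p = 0.0503) and passed it in 8 of 15 alternative settings (adjusted p from 0.024 to 0.129).

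Eif2ak2, the double-stranded RNA-activated kinase PKR that stops translation, was among the most expressed of the genes and fell slightly. It had 102, 106 and 103 CPM in MOSE-NEO against 82.4, 82.9 and 89.5 in MOSE-PAX8, from 3223, 2429 and 3102 reads against 3015, 2638 and 2904, a 1.22-fold lower level with no overlap (log2 fold change -0.29 ± 0.07 SE, edgeR adjusted p = 0.0125). The call was lost without MOSE-PAX8 replicate 1 (0.0569). Eif2ak2 lies on chromosome 17 at 78852564 to 78882573.

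Isg15 and Parp14 had the largest falls among the called genes. Isg15, a ubiquitin-like protein that is attached to other proteins after interferon, lies on chromosome 4 at 156199424 to 156200818. It had 110, 84 and 122 counts in MOSE-NEO against 67, 51 and 65 in MOSE-PAX8, or 3.49 to 4.05 CPM against 1.6 to 2 CPM. The level was 2.06-fold lower (log2 fold change -1.04 ± 0.19 SE, edgeR adjusted p = 0.00302). Isg15 kept its call in the 15 alternatives that test against no change or the local chromosome median (adjusted p up to 0.0156), but not in a test against a fold of 1.5 (0.057). Usp18, the protease that removes ISG15 and damps the receptor, had 7, 7 and 2 counts in MOSE-NEO against 4, 10 and 6 in MOSE-PAX8, and was left out of the test for low counts. The ratio of its summed counts was 1.05, with an exact 95% counting interval of 0.516 to 2.16.

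Parp14, a mono-ADP-ribosyltransferase, fell 2.58-fold. It had 19.3, 18.6 and 13.5 CPM in MOSE-NEO against 6.18, 8.83 and 4.9 in MOSE-PAX8, from 608, 428 and 408 reads against 226, 281 and 159, so every MOSE-PAX8 library lay well below the lowest MOSE-NEO library (log2 fold change -1.37 ± 0.22 SE, edgeR adjusted p = 0.00182). It was also called in the test against a fold of 1.5 (0.0162). Parp14 lies on chromosome 16 at 35832874 to 35871544, close to Dtx3l (35926511 to 35939151) and Parp9 (35938470 to 35972605), whose products form a ubiquitin ligase complex that acts in interferon signalling and DNA damage. Dtx3l fell 1.32-fold, from 38.3, 42.9 and 35.1 CPM to 29.1, 30.5 and 28.3 CPM, from 1207, 986 and 1058 reads against 1066, 972 and 919 (-0.40 ± 0.09, adjusted p = 0.00999). Parp9 had 36.2, 43.1 and 34.5 CPM in MOSE-NEO against 32.5, 31.4 and 33.9 in MOSE-PAX8, with no overlap but no pass (-0.22 ± 0.10, adjusted p = 0.127). Dtx3l and Parp9 overlap head to head on opposite strands, and the strand setting of the counting is not given in the sources used here, so reads from the shared stretch cannot be assigned to either gene. Besides Parp14 and Dtx3l, none of the 9 tested genes within 300 kb of Parp14 was called, and the nearest 50 tested genes on each side had a median log2 fold change of 0.03.

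The IFIT genes, whose products bind foreign RNA and block its translation, had very unequal levels. Per kilobase of exon MOSE-NEO held 19 CPM of Ifit2, 0.174 CPM of Ifit3 and 0.0436 CPM of Ifit1, although the 3 genes are neighbours on chromosome 19. Ifit2 had 73.3, 58.6 and 92.1 CPM in MOSE-NEO against 89.2, 72.8 and 96.6 in MOSE-PAX8, with overlapping libraries (log2 fold change 0.21 ± 0.16 SE, adjusted p = 0.382). Ifit3 (34583531 to 34588731) had 9, 6 and 11 counts in MOSE-NEO against 28, 19 and 22 in MOSE-PAX8. The lines did not overlap, and Ifit3 rose 2.21-fold (1.14 ± 0.32, edgeR adjusted p = 0.0236). Besides the test against a fold of 1.5, 8 of 14 alternatives ended this call, with adjusted p up to 0.128 by DESeq2, among them leaving out MOSE-NEO 1 (0.0749), MOSE-NEO 2 (0.0833), MOSE-PAX8 1 (0.0799) or MOSE-PAX8 3 (0.0808), as well as the replicate number as a block (0.0561). Ifit1 had 0, 8 and 0 counts in MOSE-NEO against 20, 9 and 13 in MOSE-PAX8. It did not pass (2.03 ± 0.96, adjusted p = 0.142), and 1 MOSE-NEO library decides its value: without MOSE-NEO replicate 2 the adjusted p was 0.00873. With limma-voom it was 0.0351. Ifit1 and Ifit3 have close paralogs in the cluster, so their counts are uncertain.

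The OAS genes, which make the second messenger that activates RNase L, and the Mx genes, dynamin-like GTPases that trap viral particles, were almost unexpressed in both lines. Oas2 had 1 count in each line, Oas3 3 counts in MOSE-NEO against 1 in MOSE-PAX8, and Mx1 0 and 1. Mx2 had 4 counts in MOSE-NEO against 10 in MOSE-PAX8. Oas1a had 8, 2 and 6 counts in MOSE-NEO against 2, 4 and 2 in MOSE-PAX8, a ratio of 0.419 with a counting interval of 0.155 to 1.04. Oas1a has near-identical copies in its cluster and is uncertain. Among the OAS-like genes, which bear ubiquitin-like domains, Oasl1 had 0 counts in MOSE-NEO against 2, 3 and 3 in MOSE-PAX8. Set against 3 counts over the MOSE-NEO libraries together, Oasl1 was 2.24-fold higher. That value leaves out the counting error of the MOSE-PAX8 counts, so it is not a lower limit. Oasl2 was the only one of the 5 OAS genes among the 33 with enough counts for the test. It had 35, 46 and 14 counts in MOSE-NEO against 22, 19 and 8 in MOSE-PAX8 (log2 fold change -1.27 ± 0.55 SE, adjusted p = 0.111), with overlapping lines. Without MOSE-NEO replicate 3 its adjusted p was 0.0257 and its log2 fold change -1.65, and with the replicate number as a block 0.0385. Rsad2, the antiviral enzyme viperin, had 0 counts in MOSE-NEO against 1, 0 and 3 in MOSE-PAX8. Rtp4, an interferon-induced gene, had 0, 2 and 0 against 3, 5 and 2, a ratio of 4.19 with an interval of 0.894 to 39.4.

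**Figure D3:**
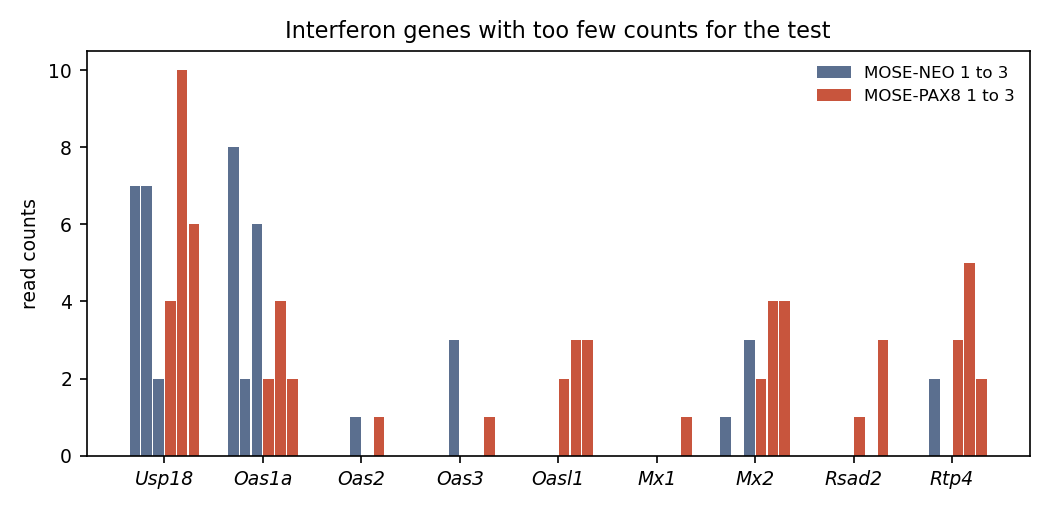
Read counts (y axis) of the 9 interferon genes with too few counts for the test, 1 bar per library, with MOSE-NEO in blue and MOSE-PAX8 in red. No bar exceeds 10 counts, and Oasl1, Mx1 and Rsad2 have none in MOSE-NEO.

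Of the other effectors with enough counts, 2 fell, 1 rose and 1 did not pass, so 75% were called against 33.9% of all tested genes. Bst2, the tetherin that holds budding virus at the cell surface, had the highest level per kilobase of exon of the 33 genes in MOSE-NEO, 25.6 CPM. It fell from 21.6, 23.4 and 24.5 CPM to 18.3, 16.1 and 16.6 CPM, from 681, 538 and 737 reads against 669, 511 and 540, a 1.36-fold lower level with no overlap (log2 fold change -0.45 ± 0.09 SE, edgeR adjusted p = 0.00595). Bst2 lies on chromosome 8 at 71534255 to 71537456. Ifi35, an interferon-induced leucine zipper protein on chromosome 11 (101448407 to 101458698), fell from 25.2, 24.6 and 22.9 CPM to 18.7, 18.8 and 18.2 CPM, from 793, 565 and 691 reads against 683, 598 and 591, 1.31-fold lower (-0.38 ± 0.08, adjusted p = 0.0061). The 24 tested genes within 300 kb had a median of 0.12, with 5 higher and 3 lower, Ifi35 among the latter. Xaf1, a pro-apoptotic antagonist of XIAP, had 6.64 ± 0.555 CPM in MOSE-NEO against 6.62 ± 0.404 in MOSE-PAX8 (SD, n = 3; adjusted p = 0.991).

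Cxcl10, a chemokine induced by interferon and by NF-kB, was the gene with the largest called rise. It lies on chromosome 5 at 92346638 to 92348889. It had 10, 18 and 11 counts in MOSE-NEO against 74, 45 and 43 in MOSE-PAX8, or 0.318 to 0.782 CPM against 1.32 to 2.02 CPM. The lines did not overlap, and the level was 3.34-fold higher (log2 fold change 1.74 ± 0.38 SE, edgeR adjusted p = 0.00802). The rise was called in all 16 alternatives, including the test against a fold of 1.5 (0.0453), and the log2 fold change ranged from 1.5 without MOSE-NEO replicate 1 to 2.2 without MOSE-NEO replicate 2. Cxcl9 and Cxcl11, chemokines for the same receptor that lie beside it, had 1 count each, in MOSE-NEO. Art3 overlaps Cxcl10 on the opposite strand.

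**Figure D4:**
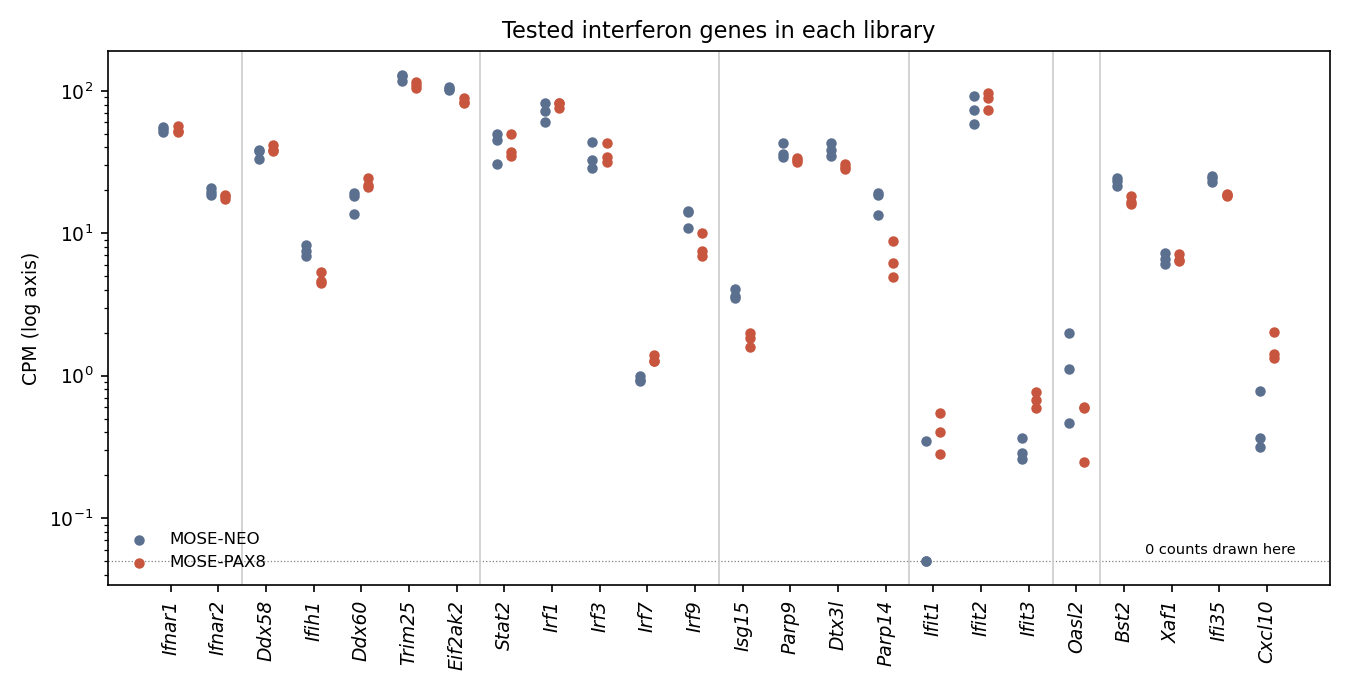
CPM in each library (y axis, log scale; TMM-scaled) of the 24 tested interferon genes, with MOSE-NEO in blue and MOSE-PAX8 in red and 1 point per library; 0 counts are drawn on the dotted line. Levels run from below 1 CPM (Ifit1, Ifit3) to above 100 CPM (Trim25), and the lines separate for Isg15, Parp14 and Cxcl10.

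The coefficient of variation had a median of 11% in MOSE-NEO and 7.4% in MOSE-PAX8 over the 24 genes, against 9.52% and 8.21% over all tested genes. It was 1.65% for Eif2ak2 in MOSE-NEO and 173% for Ifit1. Stat2, Irf3, Irf9, Parp14, Ddx58 and Ifi35 were the 6 genes highest in MOSE-NEO 1 within their line, and all 6 were also highest in MOSE-PAX8 2. The share of all tested genes with this pattern was not counted. Over all tested genes the deviations of MOSE-NEO 1 and MOSE-PAX8 2 from their line means correlated at 0.671, so the pattern is not particular to the interferon genes. With both of these libraries left out, Parp14, Irf9 and Ifi35 were still called and Stat2, Irf3 and Ddx58 were still not called.

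The wider pathway was examined in 5 lists of further interferon genes, in which 93 genes were tested, 29 fell and 13 rose. Without MOSE-PAX8 replicate 3 the count of those that rose was 8. The shares were 31.2% lower and 14% higher, beside the background of 16.1% and 17.9% for all tested genes, and the median log2 fold change was -0.18. The lists were chosen with earlier results of these data known, so their shares are descriptive only. In the list of nucleic acid sensing genes 11 of 22 tested genes fell (50%) and 0 rose, against 16.1% and 17.9% of all tested genes. Ifi203 and Ifi204, DNA-binding proteins of the interferon-inducible p200 family, fell 5.39-fold and 3.52-fold, to 1.82 ± 0.426 and 35.7 ± 7.73 CPM (SD, n = 3; edgeR adjusted p = 0.000139 and 0.000275). They belong to a family of close paralogs, so their counts are uncertain. Adar, the adenosine deaminase that marks double-stranded RNA as self, fell 1.92-fold from 85.2 ± 4.7 to 44.3 ± 1.49 CPM (4.32e-05). It lies in a part of chromosome 3 where the nearest tested genes had a median log2 fold change of -0.53, and its difference from that value was -0.42. Tmem173, which encodes the adaptor STING, fell 1.58-fold (0.000834). Mb21d1, the gene of the sensor cGAS upstream of STING, had too few counts for the test, 10 in MOSE-NEO against 2 in MOSE-PAX8. Of the other genes of this list left out for low counts, Zbp1 had 2 against 11, Aim2 1 against 7 and Dhx58 31 against 30. Tlr9, Trex1 and Rnf125 had 0 in every library.

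Among JAK-STAT genes and their inhibitors 5 of 18 fell (27.8%) and 6 rose (33.3%), against 16.1% and 17.9% of all tested genes. Jak1, a kinase bound to IFNAR2, fell 1.47-fold from 225 ± 9.74 to 153 ± 11 CPM (SD, n = 3; edgeR adjusted p = 0.0011). Irf5 fell 1.76-fold (0.000817) and Pias1, an inhibitor of STAT signalling, 1.22-fold (0.012), though Pias1 lost its call without MOSE-PAX8 replicate 3 (0.0632). Irf2bp1, a corepressor of IRF2, rose 1.94-fold (0.000168) and Pias4 1.33-fold (0.00489), and both lost their calls against the local chromosome median (0.0894 and 0.188). The phosphatase gene Ptpn6 rose 2.12-fold to 1.08 CPM (0.014), and lost its call with DESeq2 (0.0571), without MOSE-NEO 3 (0.0549) and on leaving out MOSE-PAX8 3 (0.0597).

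Among 49 tested further interferon-stimulated genes 11 fell (22.4%) and 5 rose (10.2%), against 16.1% and 17.9% of all tested genes. The share called in either direction was 32.7%, close to the 33.9% of all tested genes. Tap1, the peptide transporter of antigen presentation, fell 1.72-fold (edgeR adjusted p = 0.000647), the nuclear body gene Sp100 2.1-fold (0.0011), the lectin gene Lgals9 1.54-fold (0.000955) and Oas1c, an OAS paralog, 4.66-fold to 0.394 CPM (0.000649). Genes of the interferon-gamma-inducible GTPases rose: Irgm1 1.74-fold from 184 ± 25.1 to 321 ± 38.1 CPM (SD, n = 3; 0.00152), Gbp2 2.31-fold (0.00428) and Gbp3 2.7-fold (0.0144). Other members of these families, Gbp7, Irgm2 and Igtp, had log2 fold changes of 0.52, -0.01 and -0.35 and did not pass. Gbp2 and Gbp3 lie in a raised part of chromosome 3 with a local median of 0.48, and Gbp3 lost its call against that value (0.0804) and without MOSE-NEO replicate 1 and MOSE-PAX8 replicate 2 together (0.0734). Daxx, a histone chaperone, rose 1.41-fold (0.00148).

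**Figure D5:**
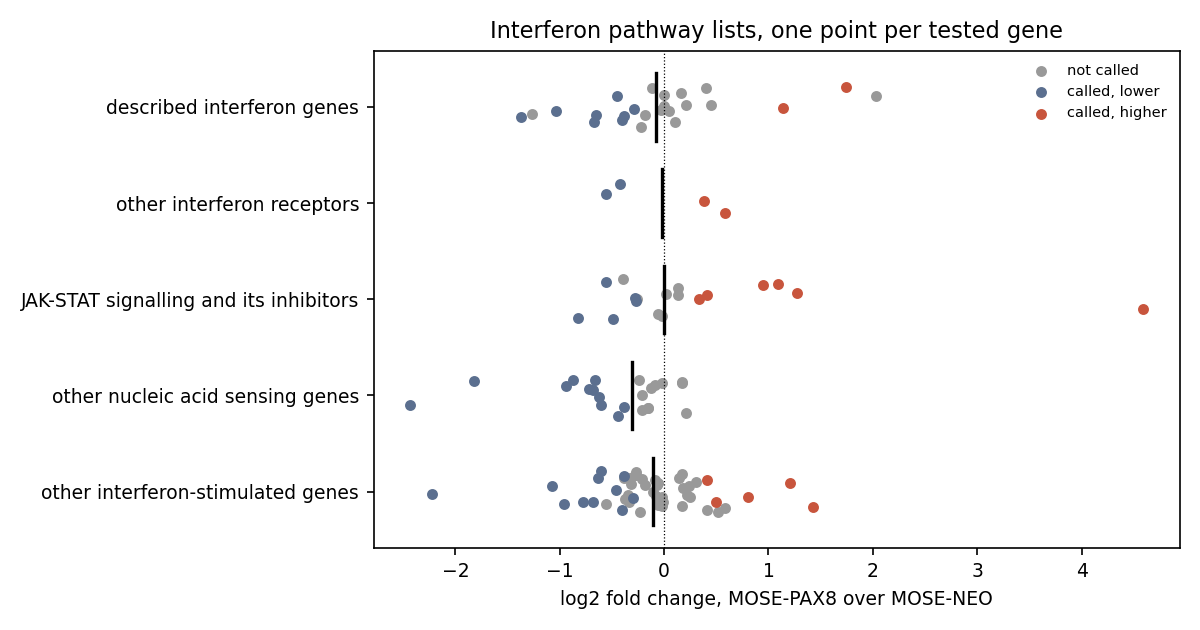
Log2 fold change of MOSE-PAX8 over MOSE-NEO (x axis), 1 point per tested gene, for the 24 tested interferon genes and 4 pathway lists with tested genes; black bars are medians, blue points were called lower and red points higher. Nucleic acid sensing genes have a median of -0.31 and no red point.

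Leukocytes, which express many of these genes strongly, were checked through 13 markers. The summed level of the markers was 9.48 to 17.6 CPM in MOSE-NEO against 9.96 to 11 in MOSE-PAX8, and Laptm5, Tyrobp and Adgre1 were at 0 in every library. Of the 4 markers with enough counts for the test, Ptprc, which encodes CD45, rose from 0, 0 and 1 counts to 60, 49 and 87, and Csf1r, a macrophage receptor, fell from 10.5 ± 3.19 to 4.2 ± 0.913 CPM (SD, n = 3). The other 2, Cd68 and Fcer1g, did not pass. The share called was 25% higher and 25% lower, against 17.9% and 16.1% of all tested genes. Among the markers with too few counts, Coro1a had 2 counts in MOSE-NEO against 14 in MOSE-PAX8. Cd53 had 0 against 6, while Cd79a went the other way with 15 against 8. Endothelial markers summed to 1.91 to 2.06 CPM in MOSE-NEO against 1.39 to 1.51 in MOSE-PAX8, with Cdh5 at 0 in every library. Fibroblast and stromal markers summed to 14500 to 17300 CPM and 7210 to 8500 CPM, nearly all of it from Col1a2, Col1a1 and Dcn, while Pdgfra, Pdgfrb, Lum and Pi16 had at most 14 counts in a library. Of the 3 tested, 1 (33.3%) was called lower and 0 higher, against 16.1% and 17.9% of all tested genes. Col1a2 fell from 11500 ± 1180 to 4460 ± 539 CPM (SD, n = 3; edgeR adjusted p = 0.000114). Col1a1 and Dcn did not pass (0.0884 and 0.466), and their libraries overlapped. The part of these markers in the results on interferon genes was not tested.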

How the data were processed

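RNA sequencing counts of 6 libraries were used, 3 per line. The authors deposited raw read counts for each Ensembl gene. The submitters' processing notes name cutadapt 1.13, STAR, HTSeq 0.6.1p1 and DESeq2, with the build mm10. Which annotation and strand setting were used, and how multi-mapped reads were treated, is not given in the sources used here. Symbols, coordinates (counted from 1) and merged exon lengths came from GENCODE M21, in which 24991 of 25006 identifiers matched.

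Counts were fitted over all genes with edgeR 4.0.16 (R 4.3.3; quasi-likelihood test, TMM factors, filterByExpr) and p-values were adjusted by Benjamini-Hochberg. CPM values use TMM factors. SEs were worked back from the test statistic. A library at 0 was given a floor of 3 counts, but for the fold of Oasl1 the 3 counts were set over the MOSE-NEO libraries together. Counting intervals are exact, at 95%. The fit was tested on simulated data. Alternatives used DESeq2 1.42.0, limma 3.58.1, other factors and filters, a replicate block, omitted libraries, the local chromosome median (50 tested genes on each side) and a fold of 1.5.

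The interferon genes and lists were chosen with earlier results of these data known. All called genes, both receptors, Stat2, Irf3, Irf7 and Irf9 are given in full, low OAS and Mx genes by counts, and up to 4 called genes per direction from each pathway list. Some genes that this rule would name are not reported here. Other genes named were chosen after their values were seen. Of 219 list symbols 218 were matched.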

Additional observations from a re-analysis of the deposited data

How the results depend on the processing

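Across the alternatives the count of called interferon genes stayed within 1.5 times the reported 10, except in the test against a fold of 1.5, which called 2 of them, Cxcl10 (1 higher) and Parp14 (1 lower), with 1070 of all genes (700 higher, 370 lower) and 8 pathway genes (3 higher, 5 lower). With 1 library left out in turn, 7 to 11 of the interferon genes were called, 1 to 3 higher and 6 to 9 lower, with 1314 to 1843 of all genes lower and 8 to 15 pathway genes higher. Limma-voom called 4 higher, a filter of 1 CPM in 3 libraries 1 (with 21 tested) and the fit without MOSE-NEO replicate 1 and MOSE-PAX8 replicate 2 also 1. Against the local chromosome median 8 pathway genes were higher. The filter on low counts bears on the group: without it all 33 genes enter and their median log2 fold change is -0.01 rather than -0.08. Ifnar1, Stat2, Irf3, Xaf1 and Ifit2, called in none of these settings, reached 0 or changed sign. Ifnar1 was 0.02 with upper-quartile factors and without the lincRNA-rich libraries, and -0.04 to 0.03 with single libraries left out; Xaf1 was 0.00, 0.02, 0.01 and 0.05 with limma-voom, upper-quartile factors, the lincRNA-rich libraries left out and the local median, and -0.06 to 0.05 with single libraries left out. Stat2 ranged from -0.21 to 0.11 and Irf3 from -0.09 to 0.24 with single libraries left out, and against the local median Irf3 was -0.12 and Ifit2 0.00. The cause of these shifts was not tested. The replicate numbers did not pair the libraries (correlations of deviations -0.488, 0.0645 and 0.478). Across different numbers the highest correlation was 0.671, between MOSE-NEO 1 and MOSE-PAX8 2, the lincRNA-rich libraries. The lowest was -0.714, between MOSE-NEO 3 and MOSE-PAX8 2. With the replicate block 11 interferon genes were called, 2 higher and 9 lower, and 3933 of all genes. The block ended the calls of Ifit3 (0.0561) and Ifnlr1 (0.0534) and added Ddx60 (0.024) and Oasl2 (0.0385). Counts of 23 to 46 per library in Irf7, and low counts in Ifit1, Ifit3 and the OAS and Mx genes, limit what could be detected.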
